A study of Mus musculus with 12 samples.

Results

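The Runx family loci are the genomic neighbourhoods of Runx1, Runx2, Runx3 and Cbfb. Their members are all accessible windows of the deposited ATAC–seq table that overlap 1 of these 4 genes or the 50 kb on either side of it, by the GENCODE M21 annotation of mm10. This rule took 148 of the 176680 windows in the table, of which 53 lay at Runx1, 49 at Runx2, 28 at Runx3 and 18 at Cbfb. The rule uses position alone and no measured value. Each of the 148 windows is 201 bases wide.

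Runx proteins are transcription factors that bind DNA through the Runt domain, and the core binding factor subunit encoded by Cbfb does not contact DNA itself but binds the Runx proteins and strengthens their hold on it. Runx1 is known for the emergence of blood stem cells, Runx2 for bone and cartilage formation and Runx3 for T cells, sensory neurons and gut epithelium. Each Runx gene is transcribed from a distal start site, named P1, and a proximal one, named P2. Runx factors activate or repress genes depending on the partners they recruit, among them the TLE corepressors and the acetyltransferase p300.

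Primary mouse embryonic fibroblasts (MEFs) from wild-type C57BL/6N embryos at E13.5 were transduced with lentivirus and collected on day 2 of induction with 2 µg/ml doxycycline. The 12 libraries fall into 4 groups of 3 replicates. MEF libraries carried the doxycycline-dependent transactivator rtTA alone and Prox1_OE libraries rtTA with FLAG-tagged mouse Prox1, and neither group was analysed here. The 2 groups compared here, 4in1_GFP_OE and 4in1_Prox1_OE, both carried rtTA and 4in1, a vector used to reprogramme fibroblasts towards induced hepatocytes. They differed in the other transgene, which was GFP in the first group and FLAG-tagged mouse Prox1, a homeodomain transcription factor of hepatocytes, in the second. The transgenes were overexpressed from tetracycline-responsive vectors. Per the paper's methods, 4in1 and rtTA lentivirus were added together with the lentivirus of the other transgene, so each culture can hold cells that received different sets of them. The MEFs came from limbs of pooled embryos, and the reporting summary calls replicates independent and biological, without saying which cultures gave these libraries.

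ATAC–seq marks open chromatin by the insertion of sequencing adapters with the transposase Tn5, and reads gather where DNA is accessible. The table gives, for each window, the log2 mean normalized read count of each group as the authors computed it, and these group means are given below as normalized reads. A difference is the log2 group mean of 4in1_Prox1_OE less that of 4in1_GFP_OE, and is negative where accessibility was lower with Prox1. The group means pool 3 libraries each, and the spread between libraries and their depth are unknown. No difference below could therefore be tested or given an error from these means, and the authors' own test of each window was not used. A window is called lower or higher where the difference reached 1 on the log2 scale, that is, 2-fold. In a culture of mixed cells, fewer cells with an open window and a less open window in each cell cannot be told apart.

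Over all 176680 windows the median log2 difference was -0.42, 72.3% of the windows were below 0, and the summed reads of 4in1_Prox1_OE were 0.751 times those of 4in1_GFP_OE. As labelled fibroblasts, the cells had a window at the promoter of each of 9 fibroblast marker genes, with 156 to 688 normalized reads in 4in1_GFP_OE. None of 6 hepatocyte marker genes had a promoter window. Of 4 endothelial and 4 blood markers, 3 and 2 had one, of which Pecam1 (303.8 to 100.6 normalized reads) and Csf1r (274.4 to 84.1) were lower with Prox1 by at least 1. Kdr had 457.6 and 446.7 normalized reads, and Tek (-0.68 on the log2 scale) and Cd68 (-0.51) did not reach 1. The part of such cells in the results below was not tested.

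The sequences of 9 windows are shown first because the results return to them. They comprise the windows of the largest fall at each Runx gene, the second largest at Runx2, the Runx2 window at the P1 start site, and windows that were higher with Prox1 in each of the 3 genes. Windows are named by the distance of their midpoint from the P1 start site, positive in the direction of transcription. Each sequence is the plus strand of GRCm38, and positions are counted from 1 at its left end. Capitals mark exact matches, on either strand, to 6 short words. The core of the RUNX site was searched as TGTGGT, and the AP-1 site, which pairs with its own reverse complement, as TGACTCA or, in its other spelling, as TGAGTCA. The word for TEAD factors was GGAATG, and that for GATA factors was AGATAA. An E-box of the kind that reads alike on both strands was searched as CAGCTG, and the site of nuclear factor I (NFI) by its TTGGCA part. A match is a run of letters and not a measured binding site.
Runx1 +96.5 kb (chr16:92729595-92729795): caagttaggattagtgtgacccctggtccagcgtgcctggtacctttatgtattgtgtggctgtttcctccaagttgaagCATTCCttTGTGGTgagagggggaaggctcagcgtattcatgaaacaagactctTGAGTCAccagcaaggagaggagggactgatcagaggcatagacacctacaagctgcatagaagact
Runx1 -5.4 kb (chr16:92831439-92831639): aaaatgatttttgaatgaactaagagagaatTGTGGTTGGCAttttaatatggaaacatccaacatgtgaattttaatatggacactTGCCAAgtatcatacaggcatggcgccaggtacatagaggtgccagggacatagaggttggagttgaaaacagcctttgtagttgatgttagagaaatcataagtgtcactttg
Runx2 +312.4 kb (chr17:44502275-44502475): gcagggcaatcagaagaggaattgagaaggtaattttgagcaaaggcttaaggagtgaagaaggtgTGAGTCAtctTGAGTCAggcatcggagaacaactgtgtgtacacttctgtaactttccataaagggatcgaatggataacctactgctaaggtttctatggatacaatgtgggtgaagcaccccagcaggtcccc
Runx2 +43.7 kb (chr17:44770966-44771166): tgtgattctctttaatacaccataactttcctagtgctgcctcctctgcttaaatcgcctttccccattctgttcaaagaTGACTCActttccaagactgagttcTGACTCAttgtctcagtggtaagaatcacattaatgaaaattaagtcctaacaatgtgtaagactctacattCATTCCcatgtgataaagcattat
Runx2 -0.2 kb (chr17:44814860-44815060): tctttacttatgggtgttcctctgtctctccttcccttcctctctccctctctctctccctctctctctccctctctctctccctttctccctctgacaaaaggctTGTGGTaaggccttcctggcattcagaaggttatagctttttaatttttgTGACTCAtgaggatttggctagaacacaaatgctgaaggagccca
Runx2 +225.6 kb (chr17:44589133-44589333): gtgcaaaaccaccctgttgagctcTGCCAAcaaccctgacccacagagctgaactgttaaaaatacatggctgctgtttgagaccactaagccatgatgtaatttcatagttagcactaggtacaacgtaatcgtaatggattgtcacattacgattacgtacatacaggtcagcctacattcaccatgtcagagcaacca
Runx3 +26.3 kb (chr4:135146895-135147095): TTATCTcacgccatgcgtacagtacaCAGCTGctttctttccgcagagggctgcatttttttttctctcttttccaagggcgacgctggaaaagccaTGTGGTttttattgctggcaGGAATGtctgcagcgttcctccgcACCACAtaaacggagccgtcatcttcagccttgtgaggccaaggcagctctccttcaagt
Runx3 +20.1 kb (chr4:135140694-135140894): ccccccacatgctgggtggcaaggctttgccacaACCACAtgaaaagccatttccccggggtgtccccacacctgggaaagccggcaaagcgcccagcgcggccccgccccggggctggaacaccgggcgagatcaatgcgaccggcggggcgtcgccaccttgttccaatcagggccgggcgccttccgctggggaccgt
Runx3 +50.9 kb (chr4:135171446-135171646): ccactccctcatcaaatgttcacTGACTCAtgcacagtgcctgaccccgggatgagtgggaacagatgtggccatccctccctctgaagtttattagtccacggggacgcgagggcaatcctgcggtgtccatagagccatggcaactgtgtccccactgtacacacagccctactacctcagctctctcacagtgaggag

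The pair of deepest falls at Runx2, +312.4 kb and +43.7 kb, each held 2 AP-1 words, and the fall at Runx1 +96.5 kb held TEAD, RUNX and AP-1 words within its middle part. Runx3 +26.3 kb held 2 RUNX words with GATA, E-box and TEAD words. Among the windows that were higher, Runx1 -5.4 kb held a RUNX word that runs into an NFI word, with which it shares 1 letter, and a second NFI word further on. Runx2 +225.6 kb held only an NFI word, Runx3 +20.1 kb only a RUNX word and Runx3 +50.9 kb only an AP-1 word. Of the higher windows of Runx2 not shown, +266.7 kb and +245.7 kb each held an AP-1 word and +204.9 kb did not.

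Across the 4 loci, 48 of 148 windows (32.4%) were lower by at least 1 on the log2 scale upon Prox1 overexpression, where 24.4% of all windows were. Another 14 windows (9.46%) were higher by at least 1, where 8.33% of all windows were, and 86 lay between. The median log2 difference of the 148 windows was -0.58 (quartiles -1.14 and -0.064), and single windows ran from -2.22 to 3.21. Summed over the windows, the loci held 27934 normalized reads without Prox1 and 19311 with it. The ratio of these sums was 0.691, against 0.751 over all windows. The shares of lower and higher windows depended on the placing of 0, and with the median of all windows set to 0 the counts became 21 lower and 23 higher. These are 14.2% and 15.5% of the member windows, and 8.64% and 13.4% of all windows were lower and higher by at least 1 in that setting.

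The 4 genes differed in their balance. Runx2 had 24 lower and 4 higher windows of 49, a median log2 difference of -0.99 (quartiles -1.37 and -0.51) and 0.578 times the reads with Prox1 that it had without. Runx1 had 16 lower and 5 higher windows of 53, a median of -0.62 (quartiles -1.15 and -0.22) and 0.660 times the reads. Cbfb had 3 lower and 2 higher windows of 18 and a median of -0.26, which turned to 0.16 with the median of all windows set to 0. Runx3 had 5 lower and 3 higher windows of 28 and a median of -0.091, which turned to 0.33 in the same way. The medians of Runx2 and Runx1 therefore lay below the median of all windows, and those of Runx3 and Cbfb above it. The counts depended on the placing of 0, and with the median of all windows at 0 Runx2 had 12 lower and 6 higher windows and Runx1 8 and 7. There Cbfb had 1 lower and 4 higher windows, the inside of Runx3 0 and 5 and the Runx3 flanks 0 and 1. Of all windows, 8.64% were lower and 13.4% higher with that median at 0. Within deciles of mean concentration and GC content, Runx2 had 7 and 5 and Runx1 4 and 6, and of all windows 4.86% were lower and 12.9% higher in that setting.

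**Figure D1:**
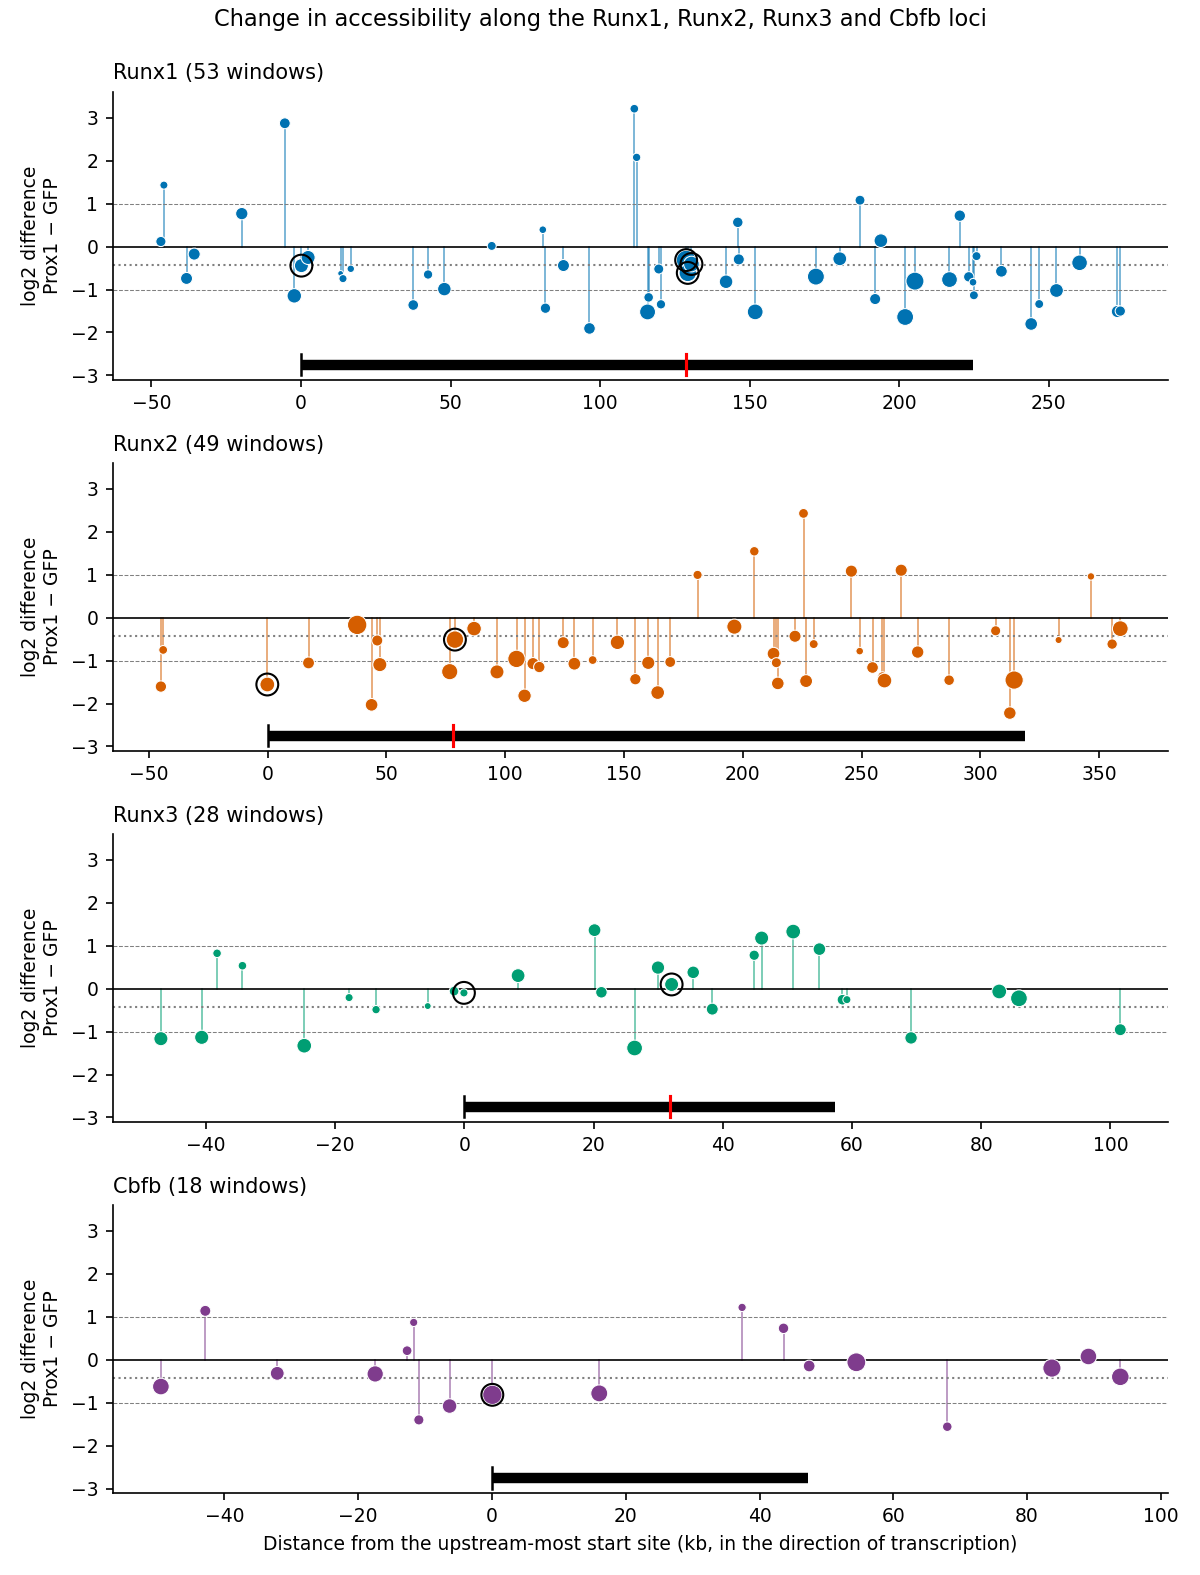
Log2 difference in accessibility (vertical axis, 4in1_Prox1_OE minus 4in1_GFP_OE) of each window along Runx1, Runx2, Runx3 and Cbfb, by distance from the upstream-most start site in kb (horizontal axis); larger points have a higher mean concentration, open rings mark windows within 1 kb of a start site of the gene, the black bar is the gene, the black and red ticks are its P1 and P2 start sites, dashed lines mark a difference of 1 either way and the dotted line is the median of all windows, -0.42. Of the windows inside Runx2, 22 of 42 are lower by at least 1, while 9 of the 12 inside Runx3 lie above 0.

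The same measure was computed for the 5153 protein-coding genes with at least 20 windows in the gene and its 50 kb flanks. Their median log2 differences had a median of -0.34, quartiles of -0.53 and -0.20 and a lower 5% limit of -0.82. Only 57 loci had a lower median than Runx2, which put it at percentile 1.11. Runx1 stood at percentile 16.3, with 841 loci lower, and Runx3 at percentile 90.0, with 4638 loci lower. Cbfb was not ranked because it holds 18 windows. These loci overlap one another, so the percentiles describe the order and are no test. In the share of windows lower by at least 1, Runx2 (49.0%) stood at percentile 98.8 of these loci, Runx1 (30.2%) at 81.5 and Runx3 (17.9%) at 46.2.

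**Figure D2:**
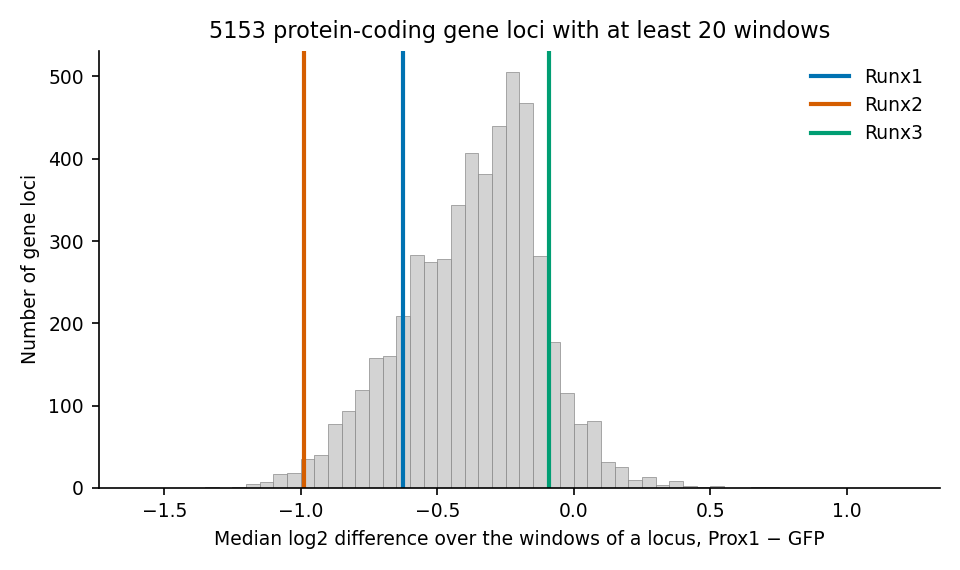
Number of gene loci (vertical axis) by the median log2 difference over the windows of the locus (horizontal axis, 4in1_Prox1_OE minus 4in1_GFP_OE) for the 5153 protein-coding genes with at least 20 windows, with coloured lines for the Runx genes. Runx2, at -0.99, lies in the lower tail, Runx1 at -0.62 below the lower quartile of -0.53 and Runx3 at -0.091 above the upper quartile of -0.20. The Runx3 median is above 0 when the median of all windows is set to 0.

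Genes most like each member were ranked by their distance in 3 values, namely the median difference and the shares of windows lower and higher by at least 1, each divided by its SD over gene loci. The values come from the 2 group means, hence from the same 6 libraries. Near to Runx1 were Alkbh1 and Fam126a (distances 0.0987 and 0.112). Map2, Inip and Prickle2 were nearest to Runx2 (0.119, 0.139 and 0.251), and Xkr6, Fhad1 and Glb1 to Runx3 (0.104, 0.203 and 0.220).

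As over the whole table, a smaller share of the start site windows than of the other windows was lower by at least 1. Of 9 windows within 1 kb of a start site of the member gene, 1 was lower by at least 1 and none was higher, and their median log2 difference was -0.44. The 139 other windows had a median of -0.58, with 47 lower (33.8%) and 14 higher (10.1%). Over the whole table the 22215 promoter windows had a median of -0.21, with 8.26% of them lower and 3.16% higher by at least 1. The 154465 distal windows of the table had a median of -0.49, with 26.7% lower and 9.08% higher. The median of the 9 windows thus lay below that of all promoter windows, and both Runx3 start windows lay above it.

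The window that was lower was at P1 of Runx2, the start of the isoform that bone-forming cells use. Runx2 -0.2 kb, which also lies within the overlapping gene Supt3, went from 329.8 normalized reads in 4in1_GFP_OE to 112.1 in 4in1_Prox1_OE, a log2 difference of -1.56. Of its sequence, 57.2% is masked as repeat. At P2 of Runx2, the +78.8 kb window, which overlaps the antisense RNA gene Runx2os1, had 476.2 and 333.9 normalized reads, a log2 difference of -0.51. Both Runx2 start windows stayed below 0 under each placing of 0, and the P1 window was lower by the larger amount.

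At Runx1, the window at P1 (+0.2 kb) had 212.9 and 156.5 normalized reads, a log2 difference of -0.44. P2 had 3 windows. The most accessible of them, +128.8 kb, had 722.6 and 581.0 normalized reads (-0.31 on the log2 scale). The +129.3 kb window had 477.2 and 312.0 normalized reads (-0.61) and the +130.5 kb window 308.0 and 232.4 (-0.41). Each of the 4 thus differed by less than 2-fold, and with the median of all windows set to 0 the +128.8 kb and +130.5 kb windows turned to 0.10 and 0.011.

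The Runx3 starts hardly differed between the groups as deposited. At P1 (-0.1 kb) the group means were 51.7 and 48.3 normalized reads, a log2 difference of -0.098, and at P2 (+32.1 kb) they were 178.4 and 191.0, a difference of 0.098. The P1 window of Runx3 was the least accessible of the 9. The start window of Cbfb (+0.1 kb) had the highest level of the 9 in 4in1_GFP_OE, with 784.6 normalized reads without Prox1 and 445.1 with it, a log2 difference of -0.82. Of the 9 start site windows, only Runx2 P1 had a larger difference.

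The lower windows of Runx2 were spread over most of the gene. Of 36 windows downstream of P2, the P2 start window included, 18 were lower and 4 higher, with a median log2 difference of -1.01. Between P1 and P2, 4 of 6 windows were lower and the median was -1.07. The 3 windows of the upstream flank, among them the P1 start window, had a median of -1.56 and the 4 of the downstream flank one of -0.39, with none of the latter past 1 either way. Inside the gene, 22 of 42 windows (52.4%) were lower, against 2 of 7 (28.6%) in both flanks together and 24.4% of all windows.

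The largest fall of the 4 loci was at Runx2 +312.4 kb, in an intron near the 3′ end, where normalized reads went from 219.3 to 47.0 (-2.22 on the log2 scale). The +43.7 kb window in the intron between the start sites went from 221.6 to 54.2 (-2.03), and the +108.1 kb window, with TEAD and RUNX words, from 251.6 to 71.3 (-1.82). The Runx2 window with the highest level in 4in1_GFP_OE, +314.2 kb, lies beside the first of these and went from 704.7 to 257.3 (-1.45). By contrast the +37.7 kb window, at the promoter of Supt3 inside Runx2, kept 581.7 of 654.0 normalized reads (-0.17). Supt3 encodes a subunit of the SAGA coactivator complex and is read in the opposite direction.

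Of the 4 windows of Runx2 that were higher, 3 met the level set for naming. The +225.6 kb window had 22.8 normalized reads without Prox1 and 122.3 with it, a log2 difference of 2.43. The +266.7 kb and +245.7 kb windows, each with an AP-1 word, went from 78.2 to 168.1 (1.10) and from 78.5 to 166.2 (1.08). All 3 are intronic and started below the median of 122 normalized reads that all windows had in 4in1_GFP_OE. The fourth, +204.9 kb, over a coding exon, went from 34.4 to 100.3 (1.54), and 70.1% of its sequence is masked as repeat. It lies under that level and was singled out after its values were seen.

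At Runx1 the differences changed along the gene. The 7 windows of the upstream flank had a median log2 difference of 0.12, the 20 between the start sites one of -0.57, the 17 downstream of P2 one of -0.70 and the 9 of the downstream flank one of -1.13. In the downstream flank 6 of 9 windows were lower and all 9 were below 0, while inside the gene 9 of 37 (24.3%) were lower, close to the 24.4% of all windows. With the median of all windows set to 0, the downstream flank would still lie below it and the upstream flank above it.

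The largest falls at Runx1 were in an intron between the start sites (+96.5 kb, 171.9 to 45.9 normalized reads, -1.91 on the log2 scale), in the downstream flank (+244.1 kb, 213.6 to 61.2, -1.80) and in an intron downstream of P2 (+202.0 kb, 524.9 to 168.4, -1.64). The second of these held RUNX and NFI words and the third AP-1 and TEAD words. Close to the third, the +205.3 kb window with 2 AP-1 words was the most accessible outside the promoters and had 575.8 and 329.7 normalized reads (-0.80).

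Upstream of P1, Runx1 -5.4 kb showed the largest rise among the windows named by level, from 21.8 to 159.9 normalized reads (2.87 on the log2 scale), at percentile 99.5 of all windows. The nearest window on the side of the gene, Runx1 -2.2 kb, went the other way, from 282.7 to 127.7 (-1.15). A pair of neighbouring windows between the start sites was also higher, Runx1 +111.4 kb from 11.04 to 102.2 normalized reads (3.21) and Runx1 +112.2 kb from 20.1 to 84.6 (2.08). The -2.2 kb, +111.4 kb and +112.2 kb windows were singled out after their values were seen, and the +111.4 kb and +112.2 kb windows lie under the level set for naming. The +112.2 kb window held the only match in the 4 loci to the Prox1 consensus of 11 letters, searched with up to 1 mismatch, which 0.305% of all windows held. Over the whole table, windows with that match had a median log2 difference of -0.75, with 37.7% lower and 2.97% higher, against 24.3% and 8.35% without it.

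Runx3 differed between its inside and its surroundings. The 12 windows inside the gene had a median log2 difference of 0.44 (quartiles 0.053 and 0.99), 3 were higher by at least 1 and 1 was lower. Their summed normalized reads were 1699 in 4in1_GFP_OE and 2133 in 4in1_Prox1_OE. The 16 windows of the flanks had a median of -0.26, with 4 lower (25.0%, near the 24.4% of all windows) and none higher, and summed to 2276 and 1552 normalized reads. The median inside the gene remained above 0 under each other placing of 0 and with 50 normalized reads added (0.32 to 1.06). That of the flanks ran from -0.50 to 0.16 and turned above 0 when the median of all windows was set to 0. The counts of lower and higher windows were then 0 and 5 inside the gene and 0 and 1 in the flanks.

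Within Runx3 the balance turned further downstream of P2. The 7 windows there had a median log2 difference of 0.78 and 1.57 times the reads with Prox1 that they had without, and 6 of them were above 0. The +50.9 kb window went from 124.7 to 313.5 normalized reads (1.33 on the log2 scale) and the +46.0 kb window, which held none of the words searched, from 114.2 to 258.6 (1.18). Between the start sites, +20.1 kb went from 79.2 to 203.6 (1.36). All 3 are intronic. In the 4in1_Prox1_OE group they were among the more accessible windows of the locus.

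The one intragenic fall of Runx3 past 1 was its most accessible window in 4in1_GFP_OE, +26.3 kb, which went from 395.8 to 151.9 normalized reads (-1.38 on the log2 scale). It lies between +20.1 kb and P2. In the upstream flank the -24.8 kb window, with 2 E-box words, went from 308.4 to 122.8 (-1.33) and the -47.0 kb window, with 2 AP-1 words, from 260.4 to 116.2 (-1.16). In the downstream flank, +85.8 kb (369.4 to 316.2, -0.22) and +82.8 kb (226.6 to 216.6, -0.065) were accessible and differed little. As deposited, the flanks thus held both falls past 1 and strong windows close to equal. With the median of all windows at 0, the deepest value was -0.91 in the flanks and -0.96 inside the gene.

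**Figure D3:**
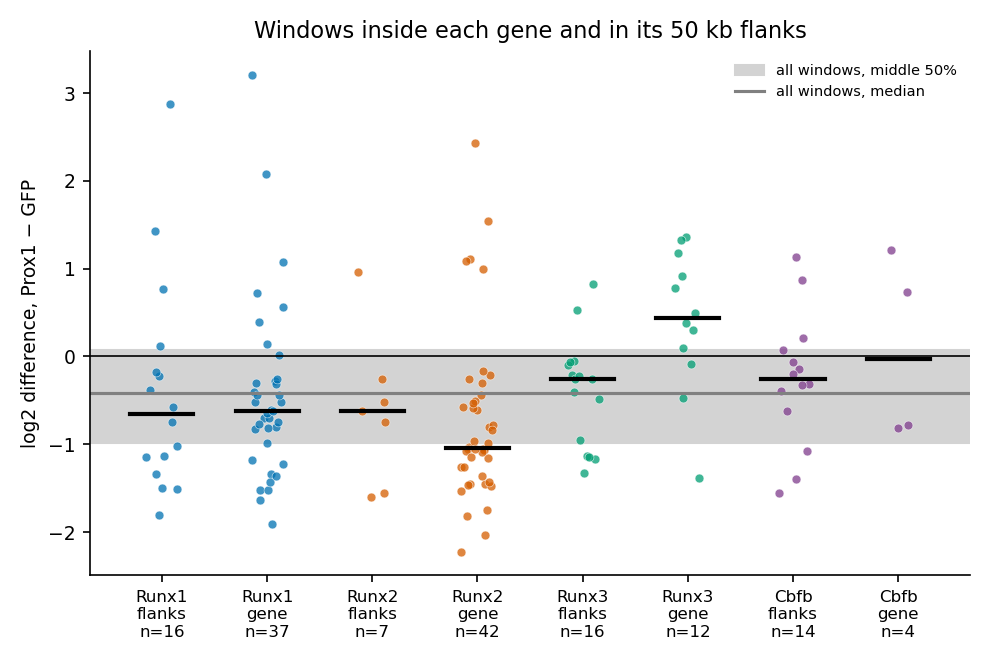
Log2 difference (vertical axis, 4in1_Prox1_OE minus 4in1_GFP_OE) of each window in the flanks and inside each of the 4 genes (horizontal axis), with black bars for medians, and the median (-0.42) and middle 50% of all windows in grey. The windows inside Runx3 have the highest median, 0.44, and those inside Runx2 the lowest, -1.04; the medians of the Runx3 flanks and of Cbfb are below 0 as deposited and above 0 with the median of all windows set to 0.

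At Cbfb, the gene body held 4 windows and the flanks 14, and several of the latter belong to neighbouring genes. The -10.9 kb window with a RUNX word went from 113.1 to 42.8 normalized reads (-1.40 on the log2 scale) and the -6.3 kb window, near the start of the noncoding gene Gm3830, from 283.8 to 134.4 (-1.08). The third lower window, +68.1 kb, went from 101.7 to 34.5 (-1.56), lies under the level set for naming and was singled out after its values were seen. Higher were the -42.9 kb window, from 58.9 to 129.6 (1.14), and the intronic +37.4 kb window, also under that level and singled out, from 31.2 to 72.5 (1.22). Promoter windows of the neighbours D230025D16Rik (+54.5 kb, 555.8 to 533.4, -0.059) and B3gnt9 (+83.7 kb, 503.7 to 440.0, -0.20) differed less than the Cbfb start did.

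The direction of a window was related to its level without Prox1, as it was over the whole table. Of the 83 member windows above the median level of all windows in 4in1_GFP_OE, 38 were lower by at least 1 and 1 was higher, with a median log2 difference of -0.84. That is 45.8% lower, against 33.0% of all such windows of the table, whose median was -0.65. Of the 65 at or below that level, 10 (15.4%) were lower and 13 higher, with a median of -0.15, and of all such windows 15.7% were lower and 16.6% higher, with a median of -0.12. Both measures share the 4in1_GFP_OE mean, so this relation is a description. The 48 lower windows had 82.2 to 705 normalized reads in 4in1_GFP_OE and the 14 higher ones 11.04 to 125. At Runx2, 33 of 33 windows above the median level were below 0, as were 90.1% of all such windows, and 22 were lower by at least 1. Below 0 were also 26 of 27 such windows at Runx1, 9 of 10 at Cbfb and 9 of 13 (69.2%) at Runx3, where 1 was higher by at least 1.

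**Figure D4:**
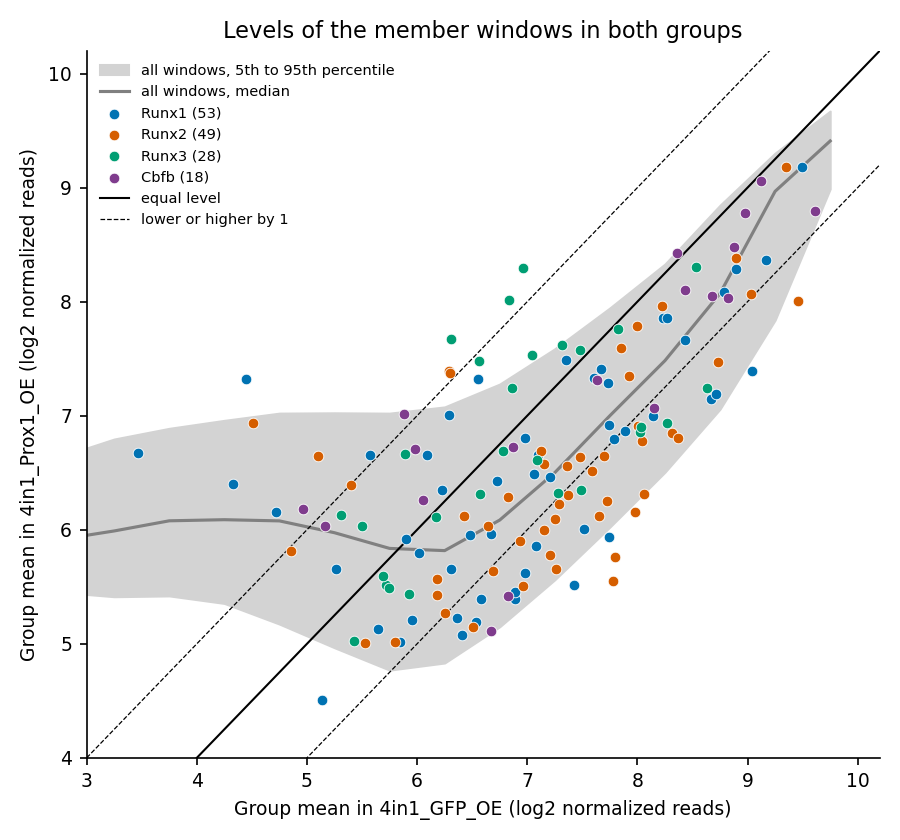
Log2 group mean of normalized reads in 4in1_Prox1_OE (vertical axis) against that in 4in1_GFP_OE (horizontal axis) for the 148 member windows, with the running median and the 5th to 95th percentile of all windows in grey, the line of equal level and dashed lines at a log2 difference of 1. Windows with high levels in 4in1_GFP_OE lie mostly below the line of equal level, as do 33 of 33 such Runx2 windows (orange), 9 of 13 at Runx3 (green) and 90.1% of all such windows.

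Base composition moved with the result as well. The 59 member windows at or below the median GC content of all windows (48.8%) had a median log2 difference of -1.05, and 32 (54.2%) were lower by at least 1. The 89 above it had a median of -0.31, with 16 lower. The whole table was split in the same direction, with a median of -0.67 and 34.1% lower at or below the median GC content, and -0.25 and 14.1% above it. All 28 Runx3 windows were above the median GC content, while 32 of the 49 Runx2 windows were at or below it. When each window was set against windows of the same decile of mean concentration and of GC content, a setting added after seeing the data, the medians were -0.34 for Runx2, -0.19 for Runx1, 0.015 for Runx3 and 0.057 for Cbfb. The order of Runx2 below Runx1 below the other 2 loci was thus kept, with smaller gaps, and the Runx3 and Cbfb medians turned to just above 0. The part of GC content in the results was not tested.

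By annotation, 83 member windows were intronic, with a median log2 difference of -0.77, 32 lower and 10 higher. The 52 windows outside the member gene had a median of -0.39, with 16 lower and 3 higher. The 8 over untranslated exons had a median of -0.56 and none past 1. The 5 over coding exons had a median of 0.72, with 1 higher and none lower. Of the intronic windows 38.6% were lower by at least 1, and of those outside the gene 30.8%, where 24.4% of all windows and 26.7% of all windows distal to start sites were. The higher windows were 12.0% and 5.77% of the same classes, against 8.33% of all windows and 9.08% of the distal ones. These annotation classes were not computed over the whole table.

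AP-1, the dimer of Fos and Jun proteins that is abundant in fibroblasts, was the word most common in windows that were lower. It was present in 43 of 148 member windows (29.1%, against 23.0% of all windows). Of these, 25 (58.1%) were lower by at least 1, and of the 105 windows without it 23 (21.9%) were. In the whole table the shares were 40.8% and 19.5%. Higher by at least 1 were 9.30% of member windows with the word and 9.52% without it, against 5.29% and 9.24% in the whole table. At Runx2, 21 of 49 windows held the word and 16 of the 21 were lower. At Runx1, 14 of 53 windows held it and 5 were lower, and at Runx3 5 of 28 held it and 3 were lower. At Cbfb 3 of 18 held it, with 1 lower and 1 higher, and their median log2 difference was 0.21, against -0.32 without it.

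TEAD factors are the DNA-binding partners of the Hippo pathway proteins YAP and TAZ. The TEAD word was in 24 member windows (16.2%, against 20.1% of all windows), of which 15 (62.5%) were lower, against 32.5% of all windows with the word. The GATA word was in 7 member windows (4.73%, against 6.72% of all windows). All 7 were lower, as were 28.6% of all windows with it. Of those 7, 4 lay at Runx2, 2 at Runx1 and 1 at Runx3. With so few windows and no replicate values, this is a description of 7 sequences.

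The words that Runx proteins themselves read were no more common among the lower windows. The RUNX word was in 34 member windows (23.0%, against 18.5% of all windows), of which 9 (26.5%) were lower and 5 (14.7%) higher, against 26.6% and 9.28% of all windows with the word. Without it, 34.2% of member windows and 23.9% of all windows were lower, so the order was opposite in the loci and the whole table. The median of member windows with it was -0.53 on the log2 scale, and that of windows without it -0.58. Of 8 windows with both RUNX and AP-1 words 4 were lower, of 35 with AP-1 alone 21, of 26 with RUNX alone 5 and of 79 with neither 18. In the whole table the shares lower were 39.7%, 41.0%, 22.7% and 18.7% in that order. Lower windows were a larger share with the AP-1 word than without it, with or without the RUNX word, in the 4 loci and in the whole table. The E-box word (26 windows, 17.6%, against 15.9% of all windows) and the NFI word (13 windows, 8.78%, against 14.1%) gave medians of -0.60 and -0.52. The FOX word TGTTTAC was in 1 member window (0.676%, against 2.65% of all windows).

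**Figure D5:**
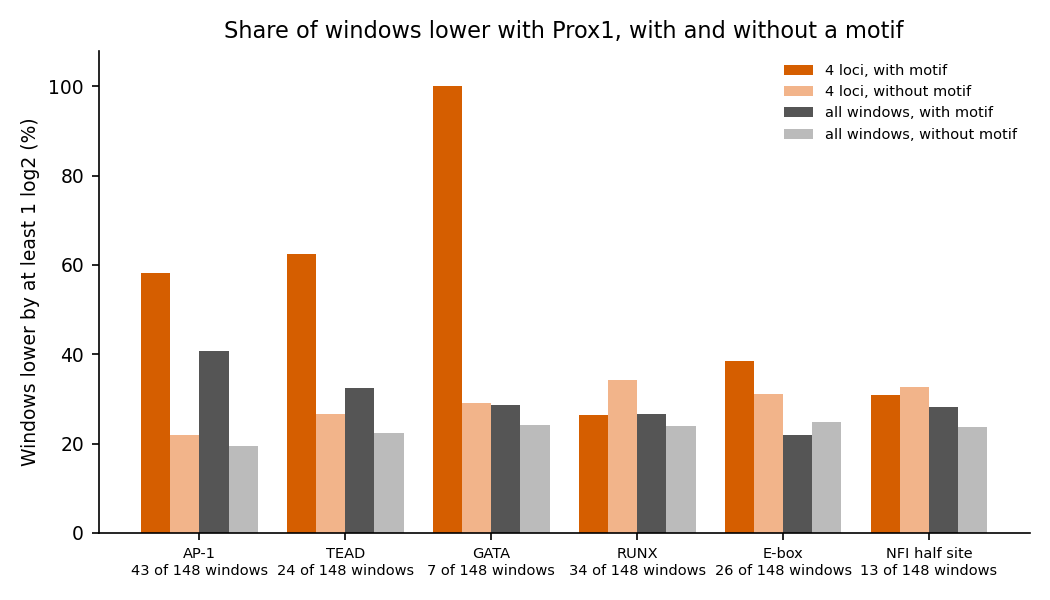
Share of windows lower by at least 1 on the log2 scale with Prox1 (vertical axis, %) for windows with and without each word (horizontal axis), in the 4 loci (orange) and in all windows (grey); the number of member windows with the word stands under each group. The AP-1 bars are 58.1% with and 21.9% without in the 4 loci, and the RUNX bars 26.5% and 34.2%; the GATA bar of 100% rests on 7 windows.

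The promoters of the proteins that work with Runx factors were set beside the family itself. Each gene was read by the most accessible window within 1 kb of a start site. Of 7 corepressors, which Runx factors recruit to silence genes, 7 had such a window and none was past 1, with a median log2 difference of -0.21. Its most accessible members were Hdac4, a histone deacetylase, with 1052 and 890 normalized reads (-0.24), and Tle1, a TLE corepressor, with 1019 and 862 (-0.24). These values lie close to the median of all promoter windows, -0.21, and are above 0 once the median of all windows is set to 0.

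The other cofactors were alike. The 3 ETO family corepressors, named after the fusion partner of RUNX1 in leukaemia, had a median of -0.18 with none past 1, led by Cbfa2t2 (819 and 724 normalized reads, -0.18) and Runx1t1 (534.5 and 459.3, -0.22). The 5 coactivators had a median of -0.18 with none past 1, led by the acetyltransferase gene Kat6b (994 and 879, -0.18) and the arginine methyltransferase gene Prmt1 (922 and 806, -0.19). The 7 regulators of Runx2 protein or activity had a median of -0.21 with none past 1, led by the kinase gene Pim1 (989 and 865, -0.19) and the ubiquitin ligase gene Smurf2 (734 and 642, -0.19). These medians, too, turn above 0 with the median of all windows set to 0. Inside the genes, 14 of 63 windows of the corepressors, 11 of 46 of the ETO family, 13 of 53 of the coactivators and 11 of 55 of the regulators were lower by at least 1, and 1, 2, 5 and 1 were higher. The highest of these shares of lower windows, 24.5% for the coactivators, lies beside 24.4% of all windows, and the others are below it.

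Target genes were read in the same way. Of 8 skeletal target genes of Runx2, 7 had a promoter window, 2 were lower by at least 1 and none was higher, with a median of -0.46. Of all promoter windows, 8.26% were lower and 3.16% higher by at least 1. Spp1, which encodes the bone matrix protein osteopontin, went from 324.6 to 129.2 normalized reads (-1.33 on the log2 scale), and Mmp13, a collagenase gene, from 104.3 to 49.7 (-1.07). Alpl, which encodes the alkaline phosphatase of mineralizing cells, had 303.4 and 324.8 (0.098). Bglap, the osteocalcin gene, singled out after its value was seen, had 37.6 and 74.5 (0.99), just under the limit.

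Of 8 blood target genes, 4 had a promoter window, with a median of -0.37, and 1 of these was lower, against 8.26% of all promoter windows. The lower promoter was that of Csf1r, the receptor gene of macrophage colony-stimulating factor, given above (-1.71). Zbtb7b, a regulator of T helper cells and the most accessible of this list, had 734.8 and 622.0 normalized reads (-0.24), and the repressor gene Gfi1, the next most accessible, had 204.5 and 172.5 (-0.25). Inside the genes, 4 of 19 windows of the skeletal list (21.1%) and 3 of 28 of the blood list (10.7%) were lower, both below the 24.4% of all windows, and 1 of each was higher. Among the fibroblast markers, 1 of 9 promoters was lower, that of the mesenchymal homeobox gene Prrx1 (316.6 to 131.1, -1.27), and the median was -0.46. The other 8 lay between -0.64 (Vim) and 0.20 (Thy1). Inside the fibroblast genes, 18 of 49 windows (36.7%) were lower and 1 was higher, with a median of -0.65, and at Prrx1 alone 8 of 16 were lower, with a median of -0.99. The part of a change in cell state in the Runx2 values was not tested.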

How the data were processed

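ATAC–seq libraries of 4in1_GFP_OE and 4in1_Prox1_OE were compared, with 3 per group and groups taken from the sample titles. Per the study's methods and processing notes, the authors used Trimmomatic 0.38 for trimming and Bowtie2 2.3.4.3 for alignment to mm10, and filtered the alignments with SAMtools 1.10, Picard 2.18.16 and bedtools 2.27.1. The peak caller is uncertain, since the methods name MACS2 and the reporting summary Genrich. DiffBind 3.4.11 then counted reads in consensus windows. The authors deposited log2 mean normalized read counts per window, over both groups and in each group, with no normalization setting stated. Further columns of the table hold the authors' own fold change, p-value and FDR, and the 2 peak lists hold intervals chosen by that comparison. None of these was used.

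Depth per library is unknown and no value per library was analysed here, so no test, error or replicate comparison could be made, and duplicated libraries could not be looked for. Because the totals over windows differ between the groups, 0 was placed in several ways. Windows were read as 1-based positions, and all lay within the GRCm38 chromosomes. Genes and start sites came from the GENCODE M21 basic annotation and sequence from RefSeq's GRCm38.p6. A promoter window lies within 1 kb of a start site. Start sites of a Runx gene were grouped into P1 and P2 by position in that annotation.

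The windows named are those within 1 kb of a start site of the member gene, the 3 with the highest mean concentration in each locus, and the 3 largest falls and rises of at least 1 (log2) among windows whose higher group mean reached the median mean concentration of all windows. Listed cofactor, regulator and target genes are named where their most accessible promoter window reached 1, with the 2 most accessible of each list, and Bglap was added. That rule does not cover the cell type markers. Up to 3 gene loci most like each Runx gene are named, and 1 of them is not reported here. The members, lists and words searched were chosen with earlier results of these data known. Alternatives changed the placing of 0, pseudocount, filter, flank, clustering, neighbours and threshold. Those within deciles of both concentration and GC, without windows over 50% masked as repeat, and with the Prox1 consensus were added after seeing the data. Scripts were tested on simulated data and used Python 3.11.15, numpy 2.4.6, pandas 2.3.3 and matplotlib 3.10.9.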

Additional observations from a re-analysis of the deposited data

How the results depend on the processing

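With no values per library, the results describe 2 group means, and depth limits cannot be given. No paired analysis was possible because only group means are given, and leaving out each replicate was not run for the same reason. Counts of lower and higher windows (48 and 14) became 21 and 23 with the median of all windows at 0 (a shift of -0.42) or equal totals (-0.41), where 8.64% and 8.80% of all windows were lower and 13.4% and 13.3% higher. With the median of promoter windows at 0 (-0.21), 31 were lower (20.9%, against 15.7% of all windows). Within deciles of mean concentration they were 14 and 25 (9.46% and 16.9%, against 7.69% and 13.0% of all windows), and within deciles of concentration and GC 13 were lower (8.78%, against 4.86%). A pseudocount of 50 gave 19 and 4 (12.8% and 2.70%, against 7.15% and 1.85% of all windows). A threshold of 2 on the log2 scale gave 2 and 4 (1.35% and 2.70%, against 0.367% and 2.22%), and at 1.5-fold 23 were higher (15.5%, against 13.4%). The median over the 4 loci (-0.58) was -0.16 under the first setting, -0.16 at equal totals, -0.36 for promoters, -0.22 within concentration deciles, -0.21 with GC and -0.36 with the pseudocount. In the same order of settings, Runx1 gave -0.21, -0.21, -0.41, -0.21, -0.19 and -0.36, and Runx2 -0.57, -0.58, -0.77, -0.47, -0.34 and -0.62. The Runx3 median (-0.091) turned to 0.33, 0.32, 0.12, 0.33 and 0.015 under the first 5, and to 0.38 over the 13 windows that touch the gene, the P1 start window included. The Cbfb median (-0.26) turned to 0.16, 0.16, 0.21 and 0.057 and kept its sign for promoters (-0.042) and over the gene body (-0.026). With flanks of 100 kb, Runx2 gave -0.87, Runx3 -0.22 and Cbfb -0.15. The difference of windows with the E-box word from those without turned from -0.050 to 0.033 outside promoters, where the FOX word gave no value. The other settings run kept these counts within 1.5 times and turned the sign of no other median. All 21 named windows past 1 kept their sign under 7 settings, and 13 to 20 of them stayed past 1. The causes were not tested.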
